A study of Mus musculus with 6 samples.

Results

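The epidermal growth factor (EGF) ligands *Egf*, *Hbegf*, *Areg*, *Ereg*, *Tgfa* and *Btc* and the ERBB receptors *Egfr*, *Erbb2*, *Erbb3* and *Erbb4* were followed in post-ischemic mouse kidney. These 10 genes, 6 ligands and 4 receptors, were taken by symbol from the 21367 genes of the deposited table. Kidney mRNA was sequenced from 3 Ptpn6+/mev mice and 3 wild-type littermates, all 7 weeks old and on a C57BL/6 background, with 1 library per mouse. Every mouse had lost the right kidney, and the left kidney was taken 24 h after its pedicle had been clamped for 34 min. Kidneys without ischemia were not analysed here, so the values describe the injured kidney in both genotypes. Ptpn6+/mev mice are heterozygous for the viable motheaten allele, a T-to-A change at a splice consensus site of *Ptpn6*, the gene for the tyrosine phosphatase SHP-1, and the labels call this genotype a SHP1 knockdown. The allele is carried in the germline and is therefore not limited to one kidney cell type. The comparison asks whether the expression of the ligands or their receptors differs in injured kidneys when SHP-1 is insufficient.

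As background, the EGF ligands are made as membrane-anchored precursors and are released by metalloproteases such as ADAM17 and ADAM10. A ligand joins receptors into pairs, the paired kinases phosphorylate tyrosines in their tails, and adaptors bound there pass the signal to the RAS-ERK and PI3K-AKT cascades, while protein tyrosine phosphatases remove the phosphates. In the kidney, EGF precursor is made mainly by the thick ascending limb and distal convoluted tubule, HB-EGF is known as a gene induced in tubules by acute injury, and EGFR signaling is known to take part in tubule repair.

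Total counts lay between 10271590 and 12361745 per library. *Ptpn6* itself had 11.9 to 14.7 FPKM (fragments scaled to transcript length and to the total of the library) in the Ptpn6+/mev kidneys and 10.9 to 17.5 in the wild-type kidneys, with a log2 fold change of -0.19 (SE 0.17, edgeR FDR = 0.715). Gene totals do not separate spliced forms, so they do not check the allele. Wild-type replicate 2 stood apart from the other 5 libraries. By FPKM it had the lowest level of 42.8% of the 13036 genes tested. FPKM is scaled to the library's total, of which its 10 most abundant genes held 12.6%, against 9.21% to 10.9% in the other libraries. Its factor in the TMM normalization used for testing was 0.929, against 0.994 to 1.03. The part of this scaling in the 42.8% was not tested. Its summed FPKM over 8 fibroblast and 8 endothelial markers was 97.7 and 124.8, against 309.3 to 387.3 and 283.7 to 328.0 in the other libraries. Its summed level of 8 collecting duct markers was 637.9, against 274.2 to 379.9. Markers of thick ascending limb, proximal tubule, collecting duct and injured tubule were present in every library, so the tissue matched its label.

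No ligand or receptor differed between genotypes by the test. Of the 10 genes, 9 passed the filter on low counts, which only *Ereg* failed, and edgeR's quasi-likelihood test called 0 of these 9 at an FDR under 0.05, against 0.138% of all tested genes. At an unadjusted p under 0.05 the number was also 0 of 9, against 12.2% of all tested genes, and the lowest p of a member was 0.176, that of *Erbb3*. The edgeR exact test and DESeq2 called 0 of the 9 as well, against 2.99% and 2.97% of all tested genes. The log2 fold changes lay between -0.36 (*Btc*) and 0.02 (*Erbb2*), beside a median of -0.0024 over all tested genes. Their FPKM ranges overlapped between genotypes for each of the 10 genes, whereas the ranges of 20.4% of all tested genes did not overlap. A p that misses the threshold does not show equal levels, and the 95% intervals below give the sizes of difference that these libraries leave possible. In bulk RNA, fewer cells of a type and less RNA per cell cannot be told apart.

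**Figure D1:**
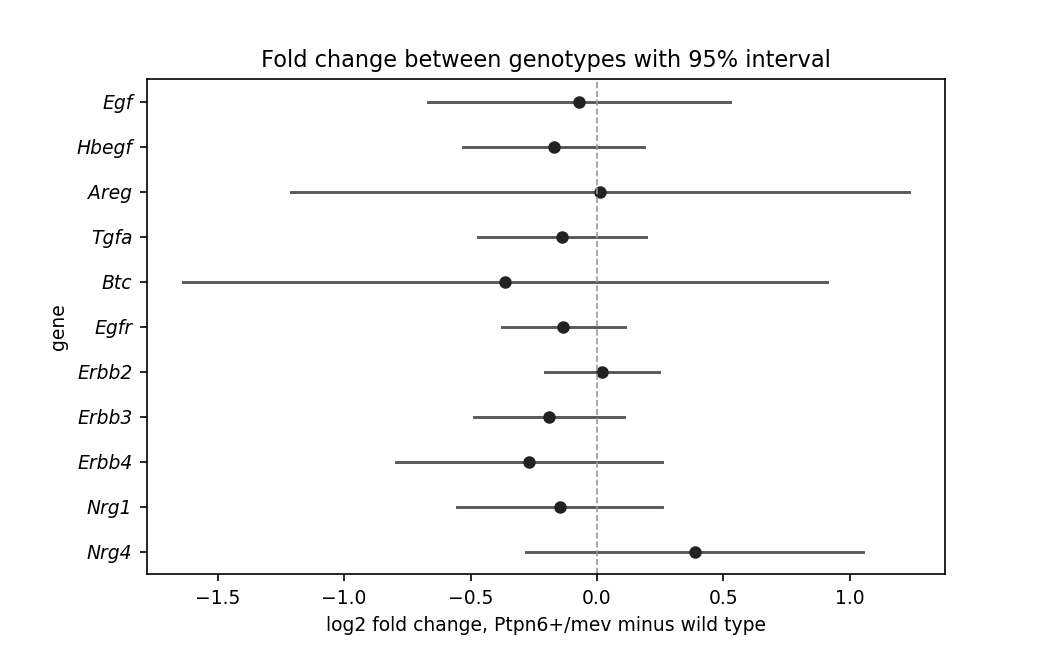
The horizontal axis is the log2 fold change, Ptpn6+/mev minus wild type, from edgeR (3 libraries in each group), with 1 row for each tested ligand or receptor and for the 2 neuregulins tested. Points are estimates and lines are 95% intervals; each line crosses 0, and those of *Areg* and *Btc* are the widest.

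Levels were compared between genes per transcript length. The mean over the 6 libraries was highest for *Hbegf* at 23.3 FPKM, followed by *Erbb2* at 15.7, *Erbb3* at 13.0, *Egfr* at 10.2, *Egf* at 7.40, *Tgfa* at 3.28, *Erbb4* at 1.30, *Areg* at 1.14, *Btc* at 0.927 and *Ereg* at 0.07. *Hbegf* lay 1.49-fold above *Erbb2*, *Egf* 2.26-fold above *Tgfa*, *Tgfa* 2.52-fold above *Erbb4* and *Btc* 13.2-fold above *Ereg*, with no overlap of the libraries' ranges at these steps. The other neighbours in this order overlapped in range. *Erbb2* exceeded *Erbb3*, and *Erbb3* exceeded *Egfr*, in 6 of 6 libraries. *Egfr* exceeded *Egf* in 5 of 6 libraries, *Areg* exceeded *Btc* in 5 of 6, and *Erbb4* exceeded *Areg* in 4 of 6. Ligand and receptor transcripts were of a like total level, with sums of 31.1 to 43.5 FPKM over the 6 ligands and 36.4 to 46.8 FPKM over the 4 receptors.

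**Figure D2:**
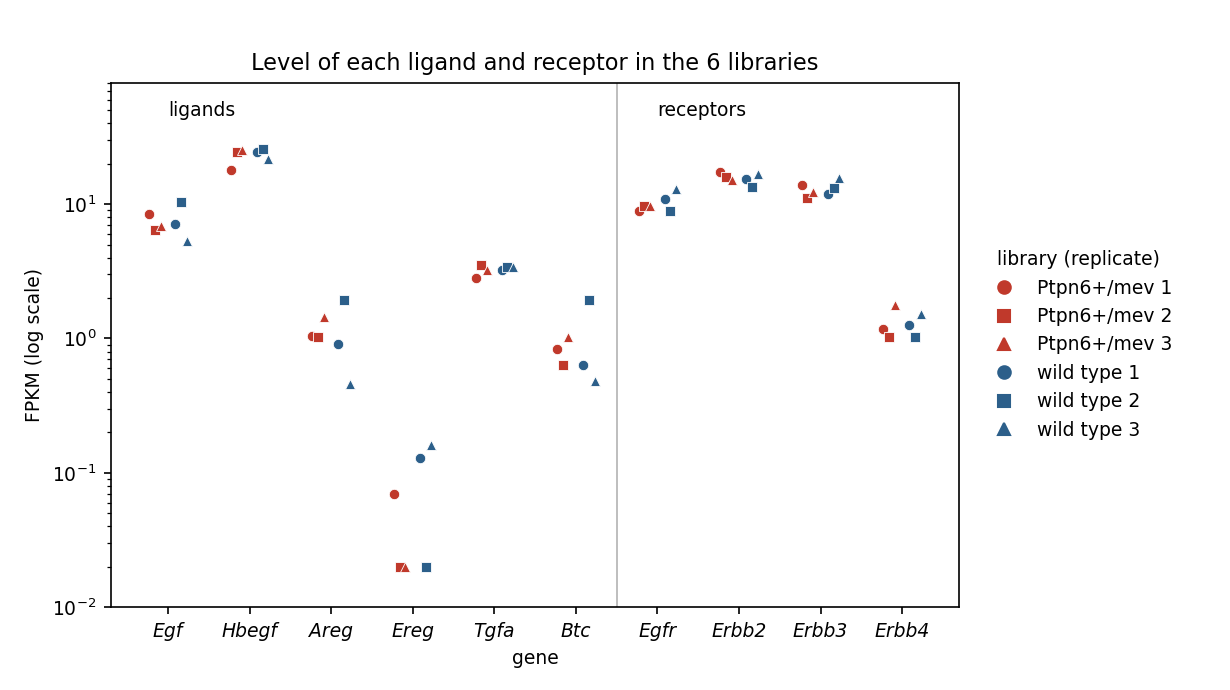
FPKM on a log scale is plotted for each of the 10 genes, with 1 point per library, red for Ptpn6+/mev and blue for wild type, and the marker shape giving the replicate number. *Hbegf* lies highest, between 17.8 and 25.9 FPKM, *Ereg* lies at or below 0.16 FPKM, and red and blue points overlap in every gene.

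Among the ligands, HB-EGF, which binds EGFR and ERBB4 and also heparan sulfate, was the most abundant transcript. *Hbegf* (chromosome 18, 36504927 to 36515805 in GRCm38) reached 17.8, 24.4 and 25.3 FPKM in Ptpn6+/mev replicates 1 to 3 and 24.6, 25.9 and 21.8 FPKM in wild-type replicates 1 to 3. Ptpn6+/mev replicate 1 was the lowest library. The group means were 22.5 ± 4.06 and 24.1 ± 2.14 FPKM (SD, n = 3 each). The log2 fold change was -0.17 (SE 0.16, edgeR FDR = 0.732), and its 95% interval ran from 0.692-fold to 1.14-fold of wild type. The log2 value was -0.03 without Ptpn6+/mev replicate 1 and -0.26 without wild-type replicate 3. *Hbegf* made up 57.4% to 68.8% of the summed FPKM of the 6 ligands. Of 11853 genes with a mean of at least 1 FPKM, those with the highest Pearson correlation with *Hbegf* over the 6 libraries, on log2(FPKM + 1), were *Pglyrp1* (r = 0.991), *H2-T22* (r = 0.977) and *Wdr61* (r = 0.976). With 6 libraries and so many genes, such values describe the closest profiles and carry no test.

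*Egf*, the gene of the EGF precursor (chromosome 3, 129677565 to 129755316), was measured at 8.45, 6.39 and 6.86 FPKM in Ptpn6+/mev replicates 1 to 3 and at 7.07, 10.3 and 5.33 FPKM in wild-type replicates 1 to 3. The wild-type kidneys held both the highest and the lowest value, 1.94-fold apart, while the Ptpn6+/mev kidneys lay within 1.32-fold and between them. The means were 7.23 ± 1.08 and 7.57 ± 2.53 FPKM (SD, n = 3 each). The log2 fold change was -0.07 (SE 0.26, edgeR FDR = 0.948; 95% interval 0.629-fold to 1.44-fold). It was 0.25 without wild-type replicate 2 and -0.29 without wild-type replicate 3. *Egf* made up 16.9% to 27.2% of the ligand sum. Among the markers of the segments that make EGF precursor, 8 of thick ascending limb summed to 1807 to 2721 FPKM in Ptpn6+/mev and 2281 to 2440 FPKM in wild type, mostly from the uromodulin gene *Umod* with 1628 to 2556 FPKM. A further 7 markers of distal convoluted tubule summed to 164.1 to 228.2 and 212.5 to 259.6 FPKM. In each list 1 gene had an unadjusted p under 0.05, beside 12.2% of all tested genes. These were the tight junction gene *Cldn19* with a log2 fold change of -0.79 (edgeR FDR = 0.306) and the thiazide-sensitive cotransporter *Slc12a3* with -0.43 (edgeR FDR = 0.234). The part of cell composition in the *Egf* values was not tested.

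TGF-alpha, a ligand of EGFR, had the steadiest transcript among the ligands. *Tgfa* (chromosome 6, 86195223 to 86275719) showed 2.83, 3.51 and 3.25 FPKM in Ptpn6+/mev replicates 1 to 3 and 3.25, 3.39 and 3.42 FPKM in wild-type replicates 1 to 3. All 6 libraries lay within 1.24-fold. Means were 3.20 ± 0.343 and 3.35 ± 0.0907 FPKM (SD, n = 3 each), and the log2 fold change was -0.14 (SE 0.14, edgeR FDR = 0.772; 95% interval 0.722-fold to 1.14-fold).

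Amphiregulin and betacellulin were low and had the widest ranges of the tested members. *Areg* (chromosome 5, 91139599 to 91148432), whose product binds EGFR, was listed at 1.04, 1.03 and 1.45 FPKM in Ptpn6+/mev replicates 1 to 3 and at 0.91, 1.94 and 0.46 FPKM in wild-type replicates 1 to 3. These values rest on 7 to 26 counts per library. *Btc* (chromosome 5, 91357261 to 91402994), whose product binds EGFR and ERBB4, was listed at 0.84, 0.64 and 1.03 FPKM in Ptpn6+/mev replicates 1 to 3 and at 0.64, 1.93 and 0.48 FPKM in wild-type replicates 1 to 3, from 17 to 61 counts. In both genes the wild-type kidneys spanned more than the Ptpn6+/mev kidneys: 4.22-fold against 1.41-fold for *Areg*, and 4.02-fold against 1.61-fold for *Btc*. Mean levels of *Areg* were 1.17 ± 0.240 FPKM in Ptpn6+/mev and 1.10 ± 0.759 FPKM in wild type (SD, n = 3 each). The log2 fold change of *Areg* was 0.01 (SE 0.53, edgeR FDR = 0.996), and the 95% interval of 0.433-fold to 2.35-fold includes a doubling. For *Btc* the means were 0.837 ± 0.195 and 1.02 ± 0.795 FPKM (SD, n = 3 each), with a log2 fold change of -0.36 (SE 0.55, edgeR FDR = 0.861; 95% interval 0.322-fold to 1.88-fold). The sign of both values depended on single libraries. Without wild-type replicate 2 the log2 fold change was 0.76 for *Areg* and 0.56 for *Btc*, and without wild-type replicate 3 it was -0.39 and -0.73. For *Areg* it was also -0.17 without Ptpn6+/mev replicate 3 and -0.11 without wild-type replicate 1.

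Epiregulin, a ligand of EGFR and ERBB4, was close to the limit of detection. *Ereg* (chromosome 5, 91074622 to 91093646) had 3, 1 and 1 counts in Ptpn6+/mev replicates 1 to 3 and 6, 1 and 8 counts in wild-type replicates 1 to 3. Wild-type replicates 1 and 3 were the highest, and wild-type replicate 2 was as low as Ptpn6+/mev replicates 2 and 3. In the fit without a filter the log2 fold change was -1.44 (95% interval 0.0943-fold to 1.44-fold), a value that at such counts depends on the fit, with an unadjusted p of 0.133 and an edgeR FDR of 0.656, so no difference was detected.

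*Egf*, *Areg* and *Btc* shared one order at the extremes: each was highest in wild-type replicate 2 and lowest in wild-type replicate 3. This was so for 3.84% of all tested genes. *Hbegf* was also highest in wild-type replicate 2, whereas *Egfr* and *Erbb3* were highest in wild-type replicate 3, and by FPKM *Egfr* and *Erbb2* were lowest in wild-type replicate 2. On that scale no receptor was highest in wild-type replicate 2. On TMM-normalized CPM, all 5 tested ligands, *Tgfa* included, and the receptor *Erbb4* were highest in wild-type replicate 2. The same library with the highest *Egf*, *Areg* and *Btc* had the high collecting duct marker sum and the low fibroblast and endothelial sums given above. The water channel gene *Aqp2*, the most abundant collecting duct marker, had 430.8 FPKM there, against 121.6 to 227.5 FPKM elsewhere. The distal convoluted tubule sum was also highest in wild-type replicate 2, at 259.6 FPKM against 164.1 to 229.0 FPKM. Its macrophage sum was the lowest, at 114.7 FPKM against 176.3 to 281.3 FPKM. Its thick ascending limb sum, 2440 FPKM, was below the 2721 FPKM of Ptpn6+/mev replicate 3. That sum was carried by *Umod*, with 2198 FPKM in wild-type replicate 2 and 2556 FPKM in Ptpn6+/mev replicate 3. Of the same list, *Cldn19*, *Sostdc1* and *Ptger3* were highest in wild-type replicate 2, at 30.7, 35.5 and 9.90 FPKM. The remaining thick ascending limb markers are not given by library here. The part of these markers in the ligand values was not tested.

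**Figure D3:**
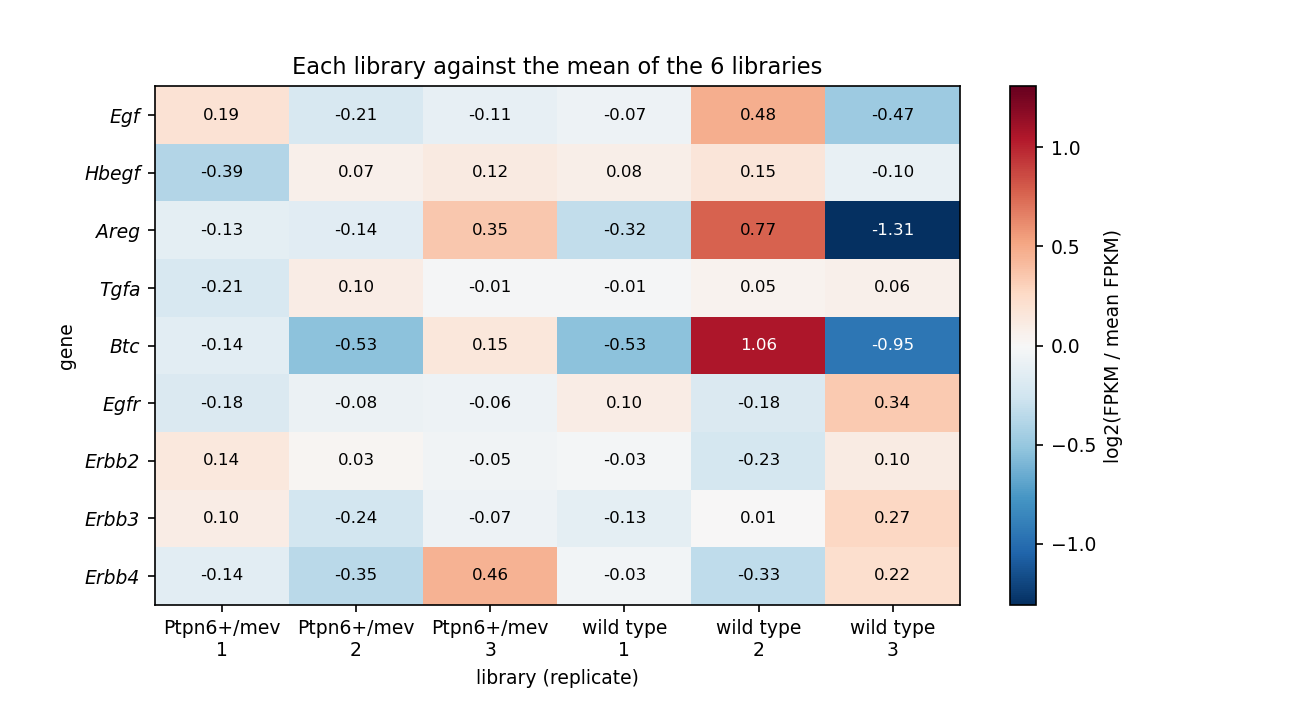
Colours and numbers give log2 of the FPKM of each library over the mean of the 6 libraries, with genes in rows and libraries in columns; *Ereg* is left out for its low counts. The wild-type replicate 2 column is positive for *Egf*, *Areg* and *Btc* (0.48, 0.77 and 1.06) and the wild-type replicate 3 column is negative for them (-0.47, -1.31 and -0.95).

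The promoters of these 3 ligands are shown because their transcripts had the same order at the extremes of the libraries. Each sequence is the 250 bases before the transcription start, taken from a table of RefSeq promoters (GRCm38.p6). Of the 10 genes, 7 were matched in the table used here, and *Hbegf*, *Ereg* and *Erbb3* were not analysed for promoters. Capitals mark matches to the motifs searched on both strands: TATAAA, the AP-1 motif TGANTCA, the cyclic AMP response element TGACGTCA, the GC box GGGCGG and the E-box CACGTG. *Egf* is read from the minus strand of chr3:129755323-129755572, *Areg* from the plus strand of chr5:91139349-91139598 and *Btc* from the minus strand of chr5:91402995-91403244.
Egf: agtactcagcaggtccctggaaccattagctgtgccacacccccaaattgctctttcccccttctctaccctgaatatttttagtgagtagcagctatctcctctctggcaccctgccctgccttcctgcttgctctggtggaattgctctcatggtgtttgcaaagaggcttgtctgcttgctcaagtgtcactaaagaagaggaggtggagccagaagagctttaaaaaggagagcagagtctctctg
Areg: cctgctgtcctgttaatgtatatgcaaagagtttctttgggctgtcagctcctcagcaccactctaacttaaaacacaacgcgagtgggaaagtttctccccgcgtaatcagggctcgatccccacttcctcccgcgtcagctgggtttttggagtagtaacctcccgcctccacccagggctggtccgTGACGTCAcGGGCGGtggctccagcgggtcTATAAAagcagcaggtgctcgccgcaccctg
Btc: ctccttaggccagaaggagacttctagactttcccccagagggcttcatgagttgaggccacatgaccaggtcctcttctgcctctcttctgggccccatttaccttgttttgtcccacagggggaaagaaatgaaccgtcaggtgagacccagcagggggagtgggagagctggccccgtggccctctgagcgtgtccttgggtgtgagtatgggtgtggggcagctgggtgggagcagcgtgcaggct
The *Areg* window held a TGACGTCA that begins 61 bases before the start, a GC box at 52 bases and a TATAAA at 31 bases. Across 32851 promoter windows of the same length, TGACGTCA was present in 1.55%, GGGCGG in 32.7%, TATAAA in 12.4%, TGANTCA in 6.75% and CACGTG in 6.02%. None of the 5 motifs occurred in the *Egf* or *Btc* window, so the 3 windows shown had no searched motif in common. The window of a second annotated *Egf* start, chr3:129725087-129725336, is not shown and held none of them either. *Areg*, *Ereg* and *Btc* lie in one stretch of chromosome 5, together with the related gene *Epgn*.

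Of the receptors, *Erbb2*, whose product binds no known ligand and serves as the preferred partner of the others, was the most abundant. *Erbb2* (chromosome 11, 98412470 to 98437716) reached 17.3, 16.0 and 15.2 FPKM in Ptpn6+/mev replicates 1 to 3 and 15.4, 13.4 and 16.8 FPKM in wild-type replicates 1 to 3. The libraries lay within 1.29-fold, with the lowest in wild-type replicate 2. Means were 16.1 ± 1.07 and 15.2 ± 1.73 FPKM (SD, n = 3 each). Its log2 fold change of 0.02 (SE 0.10, edgeR FDR = 0.964) had the narrowest interval of the 9 tested members, 0.868-fold to 1.18-fold. The genes with the most similar profile by the measure used for *Hbegf* were *Ctns* (r = 0.987), *Qtrt1* (r = 0.985) and *Zfp385a* (r = 0.985), again as a description.

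ERBB3 binds neuregulins, has little kinase activity of its own and signals through its partner to PI3K. *Erbb3* (chromosome 10, 128567523 to 128589652) was measured at 13.9, 11.0 and 12.4 FPKM in Ptpn6+/mev replicates 1 to 3 and at 11.9, 13.1 and 15.6 FPKM in wild-type replicates 1 to 3. Wild-type replicate 3 was the highest and Ptpn6+/mev replicate 2 the lowest. The means of 12.4 ± 1.44 and 13.5 ± 1.91 FPKM (SD, n = 3 each) were closer than the spread between mice. With a log2 fold change of -0.19 (SE 0.13, edgeR FDR = 0.627), the interval ran from 0.714-fold to 1.08-fold.

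EGFR is the receptor shared by all 6 ligands. *Egfr* (chromosome 11, 16752203 to 16918158) had 8.95, 9.61 and 9.74 FPKM in Ptpn6+/mev replicates 1 to 3 and 10.9, 8.94 and 12.9 FPKM in wild-type replicates 1 to 3. Wild-type replicates 1 and 3 lay above all Ptpn6+/mev kidneys, and wild-type replicate 2, at 8.94 against 8.95 FPKM, was level with the lowest of them. On TMM-normalized CPM the lowest library was Ptpn6+/mev replicate 2, with 54.8 against 55.2 in wild-type replicate 2. Means were 9.43 ± 0.424 and 10.9 ± 1.97 FPKM (SD, n = 3 each), with a log2 fold change of -0.13 (SE 0.11, edgeR FDR = 0.685; 95% interval 0.770-fold to 1.08-fold). Without wild-type replicate 2 the log2 fold change was -0.20 (edgeR FDR = 0.328), the lowest FDR of any member in any of the alternatives, and without wild-type replicate 3 it was -0.04 (edgeR FDR = 0.904).

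ERBB4, a receptor of neuregulins, HB-EGF, betacellulin and epiregulin, was the least abundant receptor, with 2.71% to 4.55% of the receptor sum. *Erbb4* (chromosome 1, 68032186 to 69108059) was listed at 1.18, 1.02 and 1.78 FPKM in Ptpn6+/mev replicates 1 to 3 and at 1.27, 1.03 and 1.51 FPKM in wild-type replicates 1 to 3. By FPKM, only Ptpn6+/mev replicate 2 was lower than wild-type replicate 2. By CPM, the count scaled to the library's total alone, it was the highest by a small margin, the Ptpn6+/mev kidneys having 9.54, 7.14 and 12.1 CPM and the wild-type kidneys 9.55, 12.3 and 11.1 CPM. With TMM normalization, which the test used, it stood at 13.3 against 11.8 in Ptpn6+/mev replicate 3. The log2 fold change from counts was -0.27 (SE 0.23, edgeR FDR = 0.709; 95% interval 0.576-fold to 1.20-fold), and from log2(FPKM + 1) with limma it was 0.03 (FDR = 0.959).

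For *Erbb4*, FPKM and CPM scaled to the total alone differ by a transcript length, by which FPKM divides and which was not the same in each library. Count over FPKM and total count gives that length, and for *Erbb4* it was 8085, 7003 and 6787 bases in Ptpn6+/mev replicates 1 to 3 and 7518, 11937 and 7339 bases in wild-type replicates 1 to 3. The ratio of the longest to the shortest, 1.76, was larger than that of 98.6% of the 10356 genes with at least 50 counts in every library. Annotated coding transcripts of *Erbb4* range from 2196 to 12037 bases. For *Egfr* the lengths were 6516, 5816 and 6011 bases in Ptpn6+/mev replicates 1 to 3. In wild-type replicates 1 to 3 they were 5495, 5725 and 5437 bases. The *Egfr* ratio of 1.20 was larger than that of 85.1% of those genes. *Egfr* in Ptpn6+/mev was 0.866-fold of wild type by mean FPKM and 0.912-fold by the fit to counts. *Egf*, with 3742 to 4205 bases, had a ratio of 1.12. For *Hbegf*, *Tgfa*, *Erbb2* and *Erbb3* the length was constant to within a ratio of 1.003. Whether the lengths reflect transcript use or the estimation of transcripts was not tested.

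**Figure D4:**
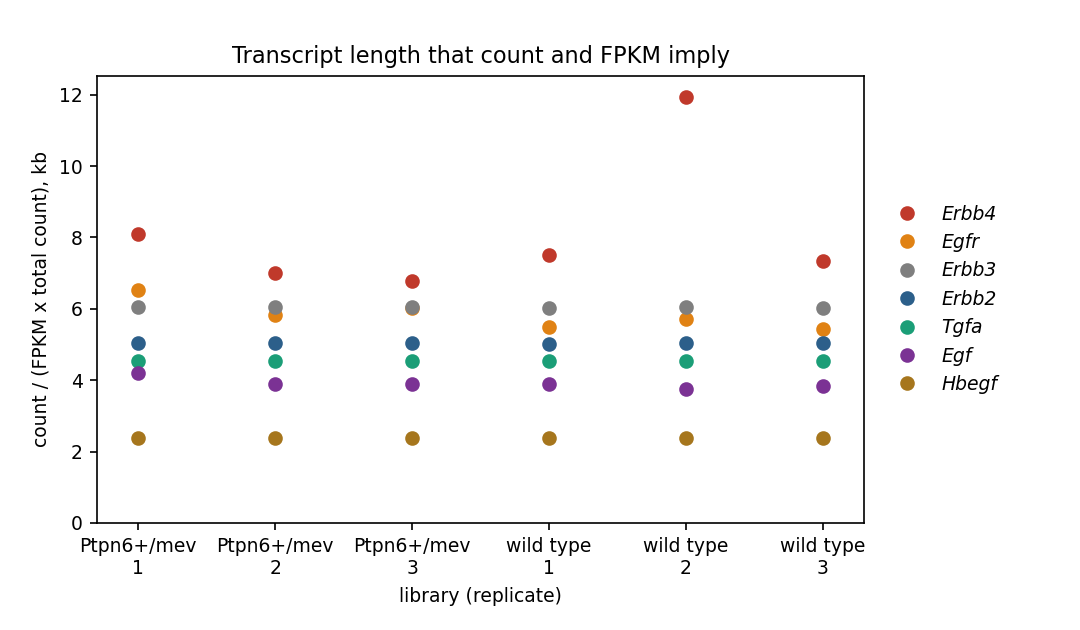
The vertical axis is the transcript length in kilobases that the count and the FPKM of a gene imply, plotted for the 7 members with at least 50 counts in every library. *Erbb4* in wild-type replicate 2 stands at 11937 bases, above its other libraries at 6787 to 8085 bases, and *Erbb2*, *Erbb3*, *Hbegf* and *Tgfa* are level.

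Of the 5 other ligands of the family, neuregulin 1, which binds ERBB3 and ERBB4, was the only abundant one. *Nrg1* had 12.2, 11.6 and 8.98 FPKM in Ptpn6+/mev replicates 1 to 3 and 9.57, 11.1 and 12.7 FPKM in wild-type replicates 1 to 3, with a log2 fold change of -0.15 (SE 0.18, edgeR FDR = 0.815). That level was near those of *Erbb3* and *Egfr*. *Nrg4*, a ligand of ERBB4, had 1.11, 0.90 and 1.30 FPKM in Ptpn6+/mev and 0.82, 0.75 and 0.84 FPKM in wild type, so its groups did not overlap. Its log2 fold change was 0.39 (SE 0.29, edgeR FDR = 0.660) from 16 to 27 counts per library. *Nrg2* had 0 to 3 counts per library, *Epgn* 1 count in all, in Ptpn6+/mev replicate 1, and *Nrg3* none.

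The wider pathway was read from 6 lists of 86 genes, the 5 other ligands included, of which 82 were tested. At an FDR under 0.05 the quasi-likelihood test called 0 of the 82, and the exact test and DESeq2 called 2 each, *Ccnd1* and *Pik3r1*, or 2.44%, beside 2.99% and 2.97% over all tested genes. An unadjusted p under 0.05 was reached by 14, or 17.1%, with 7 higher in Ptpn6+/mev and 7 lower; among all tested genes 5.53% were higher and 6.71% lower at that threshold. Ligand shedding and trafficking genes had 1 higher and 2 lower of 11 at that p, with a median log2 fold change of 0.03. *Rhbdf1*, a partner of ADAM17, had 25.0 to 25.7 FPKM in Ptpn6+/mev and 30.3 to 31.7 FPKM in wild type, a log2 fold change of -0.34 (edgeR FDR = 0.172). *Timp3*, the inhibitor of ADAM17 and the most abundant gene of the list, had -0.47 (edgeR FDR = 0.249), and *Adam17* 0.25 (edgeR FDR = 0.347). Among 18 receptor inhibitors and negative regulators none reached that p, with a median of -0.04. *Errfi1*, a feedback inhibitor of EGFR, was the most abundant of them at 141.4 to 185.2 FPKM. The receptor-restraining *Lrig3* and *Lrig1* and the phosphatase gene *Ptpn2* had the lowest p of that list, with log2 fold changes of -0.40, -0.16 and -0.29 (edgeR FDR = 0.482, 0.550 and 0.642).

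Downstream, 3 of 24 adaptors and cascade kinases were higher and 1 lower at an unadjusted p under 0.05, with a median log2 fold change of 0.03. *Pik3r1*, the regulatory subunit of PI3K, had 15.8, 23.2 and 22.1 FPKM in Ptpn6+/mev replicates 1 to 3 and 35.7, 27.7 and 38.4 FPKM in wild-type replicates 1 to 3, with no overlap. Its log2 fold change was -0.58 (edgeR quasi-likelihood FDR = 0.178, exact test 0.0367, DESeq2 0.0331). *Nras* and *Akt1* had log2 fold changes of 0.31 and 0.23 (edgeR FDR = 0.221 and 0.345), and *Map2k2*, the most abundant of the list, had 0.005 (edgeR FDR = 0.991). Of 19 tested ERK response genes, 2 were higher and none lower at that p, with a median of 0.05. The cyclin D1 gene *Ccnd1* had 105.4, 113.0 and 111.4 FPKM in Ptpn6+/mev replicates 1 to 3 and 76.1, 73.8 and 65.8 FPKM in wild-type replicates 1 to 3. It had the lowest p of the pathway lists, with a log2 fold change of 0.54 (edgeR quasi-likelihood FDR = 0.0852, exact test 0.00381, DESeq2 0.000361), and without wild-type replicate 2 the quasi-likelihood FDR was 0.0193. *Plaur*, the urokinase receptor, and *Fosl1*, an AP-1 subunit, had 0.31 and 0.25 (edgeR FDR = 0.274 and 0.464). Over the same libraries, 5 of 11 injured tubule markers were higher and 1 lower at that p, beside 5.53% and 6.71% of all tested genes. Their median log2 fold change was 0.27, with 3 of the 11 negative. At an FDR under 0.05 the quasi-likelihood test called 0 of the 11. The exact test called *Vcam1* (FDR = 0.0184), and DESeq2 called *Vcam1* (FDR = 0.0125) and *Krt18* (FDR = 0.0487), beside 2.99% and 2.97% of all tested genes. Summed levels of the 11 markers were 26950 to 32975 FPKM in Ptpn6+/mev and 30203 to 39010 FPKM in wild type. They were carried by the osteopontin gene *Spp1*, the 1 marker lower at that p, with a log2 fold change of -0.38 (edgeR FDR = 0.331). The other 10 markers summed to 6069 to 7467 FPKM in Ptpn6+/mev and 5540 to 6090 FPKM in wild type. Their part in the *Ccnd1* value was not tested.

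EGF is also known to act on magnesium and sodium transport in the distal nephron. In a list of 8 genes of that action, 1 was higher and 4 lower at an unadjusted p under 0.05, with a median log2 fold change of -0.29. Over all tested genes, 5.53% were higher and 6.71% lower at that p. The epithelial sodium channel subunit genes *Scnn1b* and *Scnn1g* had log2 fold changes of -0.29 and -0.34 (edgeR FDR = 0.258 and 0.290). *Slc41a1*, a magnesium transporter, had -0.29 (edgeR FDR = 0.372). *Sgk1*, the kinase that promotes sodium channel activity and the most abundant gene of the list, had 90.6, 52.0 and 83.6 FPKM in Ptpn6+/mev replicates 1 to 3 and 38.7, 60.2 and 45.2 FPKM in wild-type replicates 1 to 3, with overlap between groups and a log2 fold change of 0.56 (edgeR FDR = 0.374). The distal convoluted tubule markers above had a median log2 fold change of -0.43 in 6 tested genes, and 8 collecting duct markers one of -0.18, with 1 higher and 1 lower at that p. These lists share genes with the list of 8: *Trpm6* is also a distal convoluted tubule marker, and *Scnn1g* is the lower collecting duct marker.

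**Figure D5:**
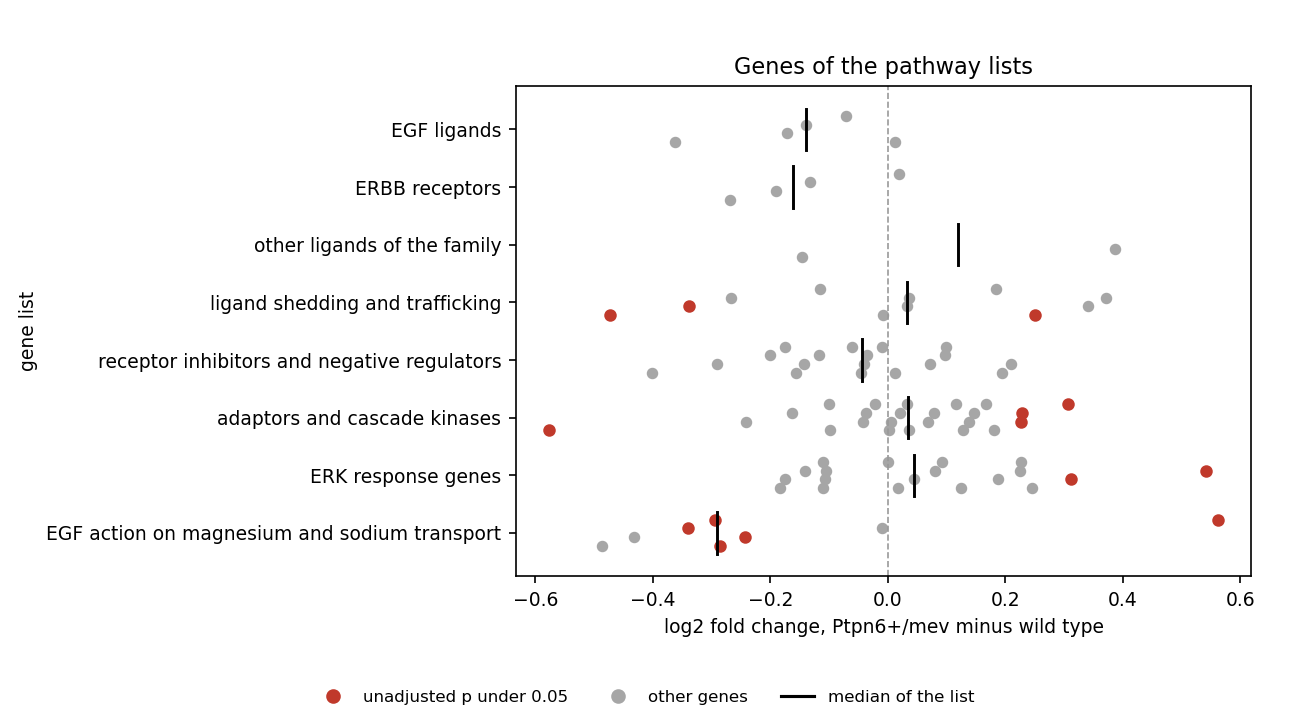
Each point is the log2 fold change, Ptpn6+/mev minus wild type, of one tested gene, with a row for the ligands, the receptors and each of the 6 pathway lists; red points have an unadjusted p under 0.05 and black bars are medians. Red points are absent from the ligand, receptor, other ligand and inhibitor rows, and *Ccnd1* at 0.54 and *Sgk1* at 0.56 lie farthest right.

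Markers of other cells were compared in the same way. Of 11 proximal tubule markers, 6 were lower and 0 higher at an unadjusted p under 0.05. Over all tested genes, 6.71% were lower and 5.53% higher at that p. The log2 fold change was positive for 2 of the 11, among them the most abundant, *Acsm2*, at 0.08 (edgeR FDR = 0.837). In the quasi-likelihood test 1 marker passed the FDR threshold, the organic anion transporter gene *Slc22a8*, with a log2 fold change of -0.91 (edgeR FDR = 0.0443). The exact test and DESeq2 each called 4 of the 11. Over all tested genes the share called was 0.138% by quasi-likelihood, 2.99% by the exact test and 2.97% by DESeq2. Summed levels of the 11 markers were 1999 to 2187 FPKM in Ptpn6+/mev and 2217 to 2472 FPKM in wild type. No macrophage, neutrophil, fibroblast or endothelial marker reached an unadjusted p under 0.05. Of 6 tested urothelial markers 1 did, *Krt14*, with a log2 fold change of 0.53 (edgeR FDR = 0.361). The urothelial median was -0.62, with 4 of the 6 negative, the lowest of them the uroplakin gene *Upk1a* at -1.18 (edgeR FDR = 0.502). Summed macrophage levels were 176.3 to 281.3 and 114.7 to 254.2 FPKM, neutrophil levels 26.6 to 62.4 and 27.3 to 49.7 FPKM, and urothelial levels 11.8 to 28.3 and 15.4 to 24.9 FPKM, in Ptpn6+/mev and wild type respectively. No marker in the table was at 0 in every library.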

How the data were processed

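Poly-A mRNA libraries from 6 kidneys were sequenced. The authors used TopHat for alignment (GRCm38.p5) and Cufflinks for expression levels; the submitters' processing notes also name Bowtie2 and RSEM, without their roles. The authors deposited estimated counts, not normalized, and FPKM values, which are scaled to transcript length and to the total number of fragments. Estimated counts were fractional in 1744 of 21367 genes and were rounded before testing.

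The groups, taken from the titles of the samples, were compared with edgeR 4.0.16 in R 4.3.3, using TMM normalization, the filter filterByExpr, the quasi-likelihood F-test and Benjamini-Hochberg adjustment over 13036 genes (FDR threshold 0.05). SE is the log2 fold change over the root of F, and intervals are at 95%. P-values measure the spread between 3 mice per group. Levels are FPKM as deposited. The tests were run on simulated data first. DESeq2 1.42.0, limma 3.58.1 and other settings were alternatives, 15 in all. Figures used matplotlib 3.10.9. Positions are from GENCODE M21 (GRCm38), and promoters from RefSeq (GRCm38.p6).

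The 10 genes and the gene lists were chosen with earlier results of these data known. Named from each pathway list were the genes under the FDR threshold or else the 3 with the lowest p at a mean of at least 1 FPKM, and the most abundant. Single genes of the marker lists were named after their values were seen. One marker symbol, *Psca*, was not matched and 1 macrophage symbol was shared by several genes; both were left out.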

Additional observations from a re-analysis of the deposited data

How the results depend on the processing

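No alternative called a ligand or receptor at an FDR under 0.05: 0 members passed under DESeq2's size factors, upper quartile normalization, DESeq2, limma on log2(FPKM + 1) or log2(FPKM + 0.1), the exact test of edgeR, no filter, a minimum of 10 counts per library, the replicate block and each library left out. *Areg* was not tested at the minimum of 10 counts, and *Ereg* was tested only without a filter. Of 80 member fold changes that kept all libraries, 3 turned sign: *Areg* to -0.0032 in DESeq2, and *Erbb4* to 0.0273 and 0.0376 in limma with a pseudocount of 1 and 0.1. Of 54 with a library left out, 8 turned sign. The range was -0.29 to 0.25 for *Egf*, -0.39 to 0.76 for *Areg*, -0.73 to 0.56 for *Btc* and -0.0324 to 0.0759 for *Erbb2*. It kept its sign for *Hbegf* (-0.26 to -0.03), *Tgfa* (-0.21 to -0.06), *Egfr* (-0.20 to -0.04), *Erbb3* (-0.28 to -0.10) and *Erbb4* (-0.47 to -0.10).

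Over all tested genes, 18 were called, against 387 by DESeq2, 390 by the exact test, 52 of 16516 without a filter, and 1 to 231 with a library left out (1 without Ptpn6+/mev replicate 3, 4 without Ptpn6+/mev replicate 1, 9 without wild-type replicate 1, 65 without wild-type replicate 3 and 231 without wild-type replicate 2). In the pathway lists 2 genes were called by DESeq2 and 2 by the exact test, against 0, and 0 to 1 with a library left out. The cause of these shifts was not tested. Samples share only a replicate number: deviations of same-numbered samples correlated at -0.144, -0.184 and -0.13, no sample correlated best with its own number, and with the replicate number as a block 1 gene was called and 0 members. Depth limits *Areg*, *Btc* and *Ereg*, whose lowest counts were 7, 17 and 1.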
